A study of Homo sapiens with 2 samples.

Results

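The let-7 microRNAs were examined in small RNA libraries of hCMEC/D3. This immortalised line was derived from the endothelium of human brain microvessels and serves to model the blood-brain barrier in culture. All rows of the deposited miRNA table whose hairpin name begins with hsa-let-7 were taken: 21 rows from 11 hairpins, which name 8 guide strands and 9 passenger strands, out of 2042 mature names in all. The material was 2 libraries of this 1 line, numbered replicate 2 and replicate 8, with no treatment, time course or comparison group, and nothing in the labels says whether they came from separate cultures. Tests between them therefore measure only the difference between these libraries, and since reads without molecular identifiers are not independent molecules, they and all intervals hold counting error only. It is 1 line, so no value bears on variation between lines. Where values are given in pairs, that of replicate 2 comes first.

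MicroRNAs are short RNAs cut from hairpin precursors by Drosha and then Dicer. One strand of the duplex, the guide, is loaded into Argonaute and pairs with messenger RNAs mainly through its seed, and the other strand, the passenger, is mostly degraded. The let-7 family is among the most conserved of these RNAs: it accumulates as cells differentiate and represses growth genes such as RAS, MYC and HMGA2, and the RNA-binding protein LIN28 blocks its maturation at the precursor. In endothelial cells let-7 members have been linked to sprouting, with thrombospondin-1 among the proposed targets. Neither the targets nor LIN28 were measured in these small RNA libraries.

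The guides are shown because single bases separate names whose levels differ widely. All sequences are RefSeq's mature sequences (GRCh38.p14), 5′ to 3′, with the seed (bases 2 to 8) in capitals. All 8 guides and miR-98-5p, which comes from a hairpin beside let-7f-2, matched an entry, let-7c under the name let-7c-5p.
hsa-let-7a-5p: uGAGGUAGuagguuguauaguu
hsa-let-7b-5p: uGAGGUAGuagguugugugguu
hsa-let-7c: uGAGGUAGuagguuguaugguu
hsa-let-7d-5p: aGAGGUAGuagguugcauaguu
hsa-let-7e-5p: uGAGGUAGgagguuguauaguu
hsa-let-7f-5p: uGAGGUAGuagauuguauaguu
hsa-let-7g-5p: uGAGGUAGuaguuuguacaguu
hsa-let-7i-5p: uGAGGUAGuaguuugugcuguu
hsa-miR-98-5p: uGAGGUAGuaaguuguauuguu

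Every guide is 22 bases long and carries the seed GAGGUAG. Counted from 1 at the 5′ end of let-7a-5p, let-7c differs from it by A19G, let-7e-5p by U9G and let-7f-5p by G12A. The guide let-7b-5p carries A17G and A19G, let-7d-5p carries U1A and U16C, and let-7g-5p carries G12U and U18C. The most distant from let-7a-5p is let-7i-5p, with G12U, A17G, U18C and A19U. Among the 28 pairs of guides the number of differing bases ran from 1 to 6, and 4 pairs differed at 1 base. How reads with a sequencing error were divided among such names is not given in the sources used here, and its part in the counts was not tested.

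The 11 hairpins lie at 8 places on the genome (GRCh37, the build named in the submitters' processing notes). On chromosome 9 (plus strand) let-7a-1 at 96938234 to 96938325, let-7f-1 at 96938629 to 96938715 and let-7d at 96941116 to 96941202 stand in a row inside the lncRNA MIRLET7A1HG, some of whose transcripts have an exon there (3, 1 and 1 of the spanning ones). The hairpins let-7a-3, at 46508629 to 46508702, and let-7b, at 46509566 to 46509648, are exonic in the lncRNA MIRLET7BHG on chromosome 22 (plus strand). On chromosome 11 (minus strand) let-7a-2 at 122017229 to 122017301 is intronic in the lncRNA MIR100HG. On chromosome 21 (plus strand) let-7c at 17912143 to 17912236 lies in the lncRNA MIR99AHG, where 3 of 128 spanning transcripts have an exon. The hairpin let-7e, on chromosome 19 at 52196039 to 52196117 (plus strand), is intronic in SPACA6 and lies opposite an exon of SPACA6-AS1, and let-7g, on chromosome 3 at 52302292 to 52302379 (minus strand), is intronic in WDR82. An intron of HUWE1 holds let-7f-2, on chromosome X at 53584153 to 53584235 (minus strand), and let-7i, on chromosome 12 at 62997466 to 62997550 (plus strand), is intronic in the lncRNA MIRLET7IHG and in an exon of an unnamed lncRNA on the same strand.

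The libraries held 2721287 counts in replicate 2 and 2727675 in replicate 8 after each mature name was reduced to 1 row, so 3 counts, the limit that a count of 0 allows, correspond to 1.10 CPM (counts scaled to a common library total) in either. The endothelial marker miR-126-3p stood at 109395 and 115057 CPM. Of 13 markers of other cell types, those of blood (3 of 3: miR-142-3p, miR-223-3p and miR-144-3p) and pluripotent cells (2 of 2) had no count. Blood cells also carry miR-486-5p and miR-150-5p, which were not among these markers. Here miR-486-5p had 841 and 566 counts and miR-150-5p had 622 and 503. The neuron marker miR-124-3p was at 3 and 1 counts, and the epithelial markers summed to 53.7 and 31.2 CPM. The liver marker miR-122-5p was at 235 and 252 CPM, and the smooth muscle and pericyte pair miR-143-3p and miR-145-5p summed to 835 CPM in replicate 2 and 393 CPM in replicate 8. The part of these markers in the let-7 values was not tested.

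The 8 let-7 guides made up 8.54% and 10.4% of all counts (95% Wilson intervals 8.50 to 8.57 and 10.3 to 10.4), a mean of 9.45% ± 1.30 (SD, n = 2). They held 232265 and 282907 counts. Levels among the members spanned a 73.0-fold range. The ligation step favours some sequences over others, so the order of the levels is that of the reads captured.

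The highest member was let-7i-5p, the guide of the chromosome 12 hairpin, at 25983 and 34191 CPM. Next came let-7b-5p with 24978 and 24265 CPM. In replicate 2 these guides were almost level, and only in replicate 8 did let-7i-5p stand clearly above. They were followed by let-7a-5p, at 12080 and 15231 CPM, whose reads can come from any of 3 hairpins.

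The middle of the family was held by let-7g-5p, with 7758 and 11046 CPM, and let-7f-5p, with 5996 and 10038 CPM. The ranges of this pair overlapped, and they were the only neighbours in the order whose values did. Below them let-7e-5p had 4868 and 5099 CPM. The guide let-7d-5p had 3302 and 3409 CPM, a narrow spread beside that of let-7f-5p. The lowest member by far was let-7c, at 385 and 439 CPM, 8.15-fold under let-7d-5p by their means. By mean level the 8 guides ranked between 6 (let-7i-5p) and 125 (let-7c) among all 2042 names.

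**Figure D1:**
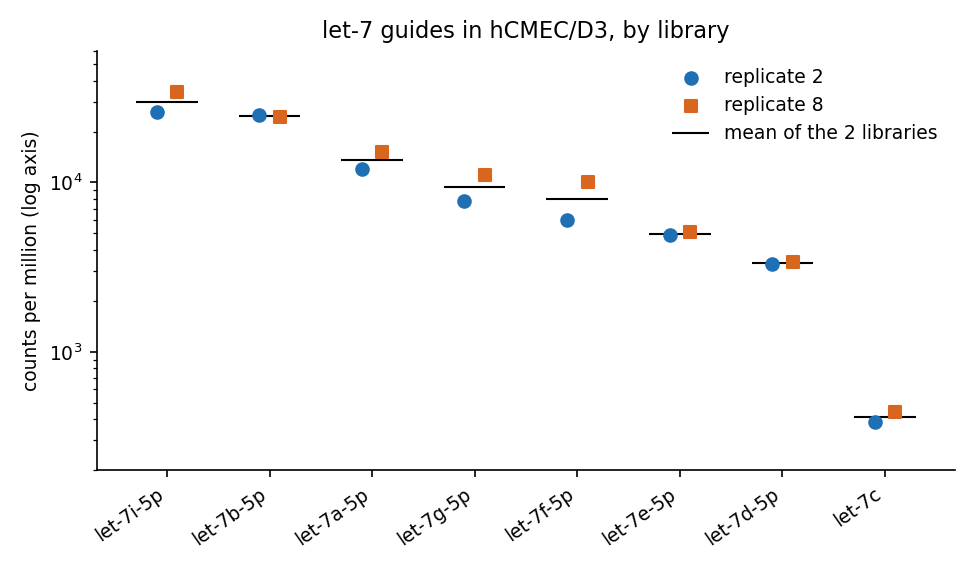
CPM (log axis) of the 8 let-7 guides in each library, ordered by their mean; points are replicate 2, squares replicate 8, and bars the mean of both. Values run from 34191 CPM for let-7i-5p to 385 CPM for let-7c, and only let-7g-5p and let-7f-5p, among neighbours, overlap.

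Reads of let-7a-5p and let-7f-5p cannot be assigned to 1 hairpin, because the same guide is cut from several. The table listed let-7a-5p once for each of 3 hairpins, with 32758 to 32874 counts in replicate 2 and 41406 to 41544 in replicate 8, and let-7f-5p once for each of 2, with 16145 to 16317 and 27277 to 27380. These rows differed by at most 1.07%. The row with the highest mean was used for each. If the rows are summed instead, let-7a-5p becomes the highest member, at 35008 CPM on the larger total, above let-7i-5p at 25757 CPM, and let-7f-5p at 13678 CPM passes let-7g-5p at 8048 CPM. Other guides of several hairpins had rows that repeat 1 count, as miR-9-5p with 117 and 92 counts at each of 3 hairpins. A sum of rows then counts let-7a-5p 3 times and let-7f-5p 2 times. Their higher places under the sum rest on these repeated rows.

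Guides of the family differed in how far they moved between the libraries. The largest difference was that of let-7f-5p, with 16317 and 27380 counts. Replicate 8 was 1.67-fold higher after scaling, a log2 ratio of 0.74 (exact 95% interval for counting error 0.72 to 0.77). For let-7g-5p, with 21113 and 30129 counts, the log2 ratio was 0.51 (0.48 to 0.54), and for let-7i-5p, with 70707 and 93263, it was 0.40 (0.38 to 0.41). Among the guides printed, these are the 3 guides that depart from let-7a-5p at position 12, by G12A in let-7f-5p and by G12U in let-7g-5p and let-7i-5p. The printed guides that keep G there ranged from -0.04 (let-7b-5p) to 0.33 (let-7a-5p). This position was looked at after the values were seen, and its part in the ratios was not tested.

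The log2 ratio of let-7a-5p, with 32874 and 41544 counts, was 0.33 (0.31 to 0.36). The remaining guides moved less than let-7a-5p. The log2 ratio was 0.19 (0.07 to 0.31) for let-7c, which had 1048 and 1197 counts. The guide let-7e-5p, with 13247 and 13908 counts, was at 0.07 (0.03 to 0.10), and let-7d-5p, with 8987 and 9300, was at 0.05 (0.00 to 0.09). Only let-7b-5p had a value below 0, of -0.04 (-0.06 to -0.03), with 67972 and 66186 counts.

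By the two-sided exact binomial test, with Benjamini-Hochberg adjustment over the 695 names with at least 10 summed counts and a threshold of 0.05, 6 of the 8 guides were higher in replicate 8 and 1, let-7b-5p, was lower. Over all names tested 10.8% were called higher, 23.5% lower and 34.2% either way. Names with many counts are called more often: of the 174 names with at least 1000 summed counts 27.0% were called higher and 76.4% either way, so that 7 of 8 calls in either direction is close to the share of well-counted names. The exact binomial adjusted p was 9.1e-07 for let-7b-5p, 0.000675 for let-7e-5p, 0.00785 for let-7c and 0.083 for let-7d-5p, which did not pass. Those of let-7a-5p, let-7f-5p, let-7g-5p and let-7i-5p were far smaller.

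The direction of let-7b-5p changed with the scaling. Under TMM its log2 ratio was 0.04 and with DESeq2 size factors 0.07, and under either all 8 guides were called higher in replicate 8, where 15.1% and 16.5% of all names were. These scalings raise every log2 ratio by 0.09 and 0.11. With the let-7 guides left out of the library totals, let-7b-5p had a log2 ratio of -0.01 (exact binomial adjusted p = 0.24), and 7 guides were called higher, let-7d-5p among them (exact binomial adjusted p = 0.0020). Over its 6 alternatives the adjusted p ran from 1.2e-18 to 0.24 for let-7b-5p and from 8.7e-13 to 0.18 for let-7d-5p, in the same exact test.

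**Figure D2:**
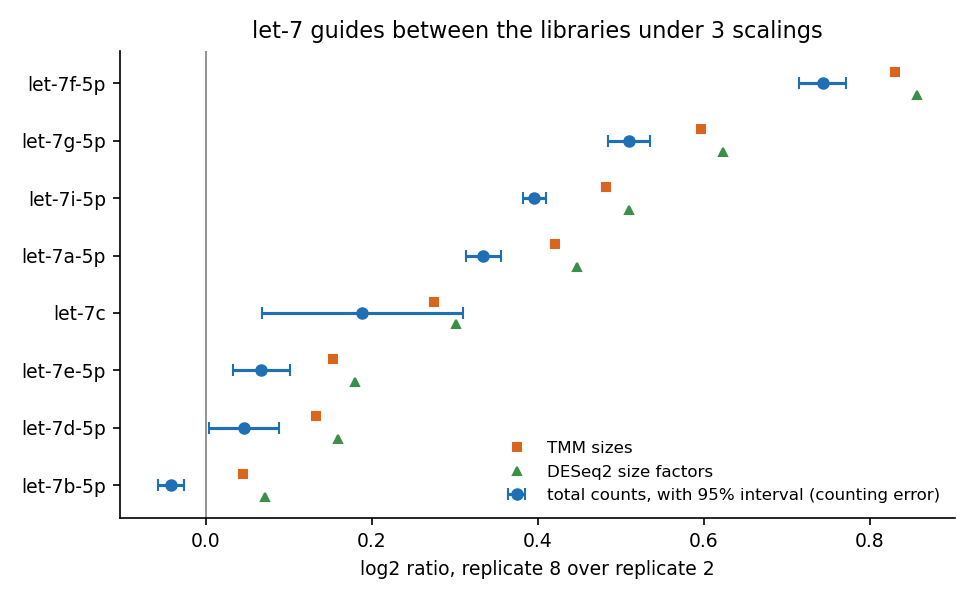
Log2 ratio of replicate 8 over replicate 2 for the 8 let-7 guides with total counts (circles, with exact 95% intervals for counting error), TMM sizes (squares) and DESeq2 size factors (triangles). let-7f-5p is highest at 0.74, and let-7b-5p changes sign with the scaling, from -0.04 to 0.04 and 0.07.

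Set beside the other miRNAs with at least 10000 summed counts, 4 guides stood at the top of the differences towards replicate 8. Of the 60 names with at least 10000 summed counts, 7 were let-7 guides, and let-7f-5p, let-7g-5p, let-7i-5p and let-7a-5p had, in that order, the 4 highest log2 ratios. The highest among the other 53 names was 0.26, for miR-21-5p, and 17 of these 53 were above 0. The median of these 53 was -0.06. That of all 8 guides was 0.26, with let-7c included although its 2245 summed counts lie below the cutoff. Over all 695 names tested the median was -0.11. Since a scaling shifts all ratios alike, this order does not depend on it. The median absolute log2 ratio of the 60 names was 0.13 and its 90th percentile 0.41, which let-7f-5p and let-7g-5p exceeded. At lower cutoffs the 4 guides did not lead. Among the 174 names with at least 1000 summed counts, miR-5100 at 0.92 was above let-7f-5p, and miR-370 at 0.57 was above let-7g-5p. Of the 367 names with at least 100, 7 were at or above let-7f-5p, itself included.

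**Figure D3:**
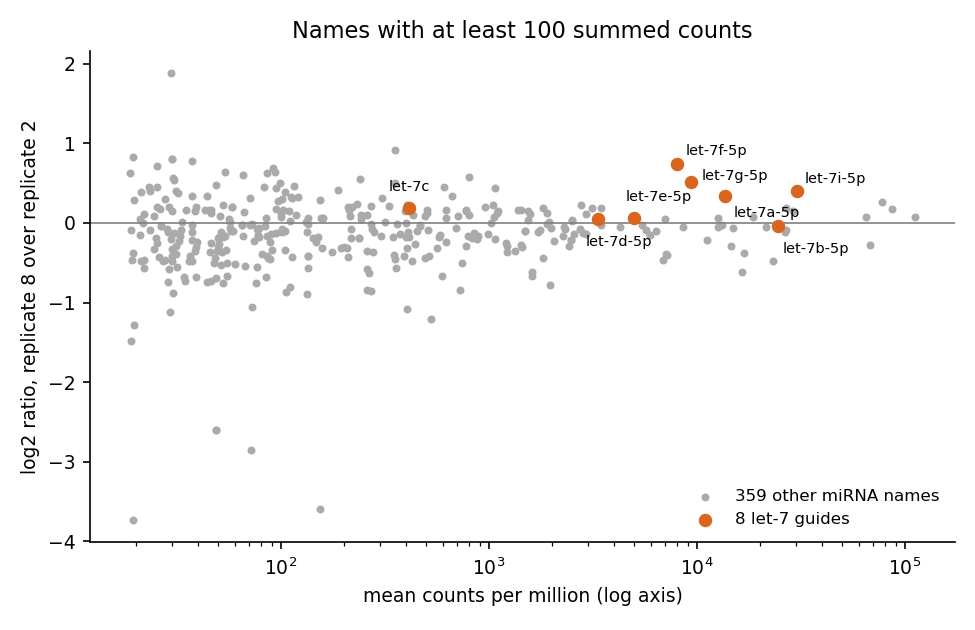
Log2 ratio of replicate 8 over replicate 2 against mean CPM (log axis) for names with at least 100 summed counts; the 8 let-7 guides are large points and the 359 other names small ones. Among the names with at least 10000 summed counts, at the right, let-7f-5p, let-7g-5p, let-7i-5p and let-7a-5p lie above all others.

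The make-up of the family shifted accordingly, on a scale that needs no library size. The share of let-7i-5p among let-7 guide counts was 30.4% and 33.0% (95% Wilson intervals 30.3 to 30.6 and 32.8 to 33.1). That of let-7b-5p was 29.3% (29.1 to 29.5) and 23.4% (23.2 to 23.6), the widest change of any member in percentage points. These shares are parts of 1 whole, so a share can fall because other members rose. The CPM of let-7b-5p itself was 0.97-fold in replicate 8. The share of let-7f-5p was 7.03% (6.92 to 7.13) and 9.68% (9.57 to 9.79). That of let-7a-5p moved less, with 14.2% and 14.7%. Grouped after their values were seen, let-7a, let-7f, let-7g and let-7i together had 141011 and 192316 counts, whereas let-7b, let-7c, let-7d and let-7e together had 91254 and 90591.

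Base composition moved with these ratios among the 8 guides, a property examined after the values were seen. The guide with the fewest G and C bases, let-7f-5p with 7 of 22, had the highest ratio, and the one with the most, let-7b-5p with 10, had the lowest. Both let-7a-5p and let-7g-5p have 8. The 4 guides with 9 ranged from 0.05 (let-7d-5p) to 0.40 (let-7i-5p), so that composition alone did not order them. Spearman's rho of the G and C share with the log2 ratio was -0.86 over the 8 guides, which share their libraries and most of their sequence. Over the 306 of 367 names with at least 100 summed counts that had a RefSeq sequence it was -0.13, and over 146 names with at least 1000 it was -0.25, both weak. With the 8 guides left out these values were -0.09 and -0.19. The part of base composition in the let-7 ratios was not tested.

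Hairpins of the family were strongly one-sided, with let-7d as the exception. In 10 hairpins both arms were listed; of let-7c only the guide was, so its arms were not analysed here. The guide is the 5p arm in every one, and its median share of the reads of both arms was 99.85% in replicate 2 and 99.88% in replicate 8. In 8 of the 10 hairpins the less abundant arm held under 1%, as in 76 of the 202 hairpins of the whole table that had 50 counts or more for the arm pair in both libraries. The median share of the less abundant arm was 0.149% over the let-7 hairpins, 2.98% over all 202 and 0.489% over the 64 with at least 10000 counts. The hairpins let-7a-1, let-7a-2 and let-7a-3 share their guide reads, as do let-7f-1 and let-7f-2. A passenger made by 1 of these hairpins alone, as let-7a-2-3p, let-7f-1-3p and let-7f-2-3p are, therefore has a share of its own hairpin that is at least the one given.

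The hairpin of let-7d is shown with that of let-7i, because let-7d was the least one-sided and let-7i gave the most abundant guide (RefSeq, GRCh38.p14). The capitals mark the 5p arm and, after the loop, the 3p arm.
let-7d hairpin: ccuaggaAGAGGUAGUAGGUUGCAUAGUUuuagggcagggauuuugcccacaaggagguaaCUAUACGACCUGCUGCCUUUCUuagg
let-7i hairpin: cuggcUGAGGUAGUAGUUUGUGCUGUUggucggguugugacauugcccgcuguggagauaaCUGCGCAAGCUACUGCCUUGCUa

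The passenger let-7d-3p had 4852 and 4496 counts, against 8987 and 9300 of its guide. It made up 35.1% and 32.6% of the hairpin's reads (exact 95% intervals 34.3 to 35.9 and 31.8 to 33.4). Its level of 1716 ± 95.2 CPM (SD, n = 2) was above that of the guide let-7c, at 412 ± 38.0 CPM. It alone held 87.1% and 85.9% of all let-7 passenger counts. By the share of its less abundant arm let-7d stood at place 17 among the 202 hairpins.

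The other passengers were rare. The next most abundant was let-7b-3p, with 260 and 282 counts, or 0.381% and 0.424% of its hairpin. It was followed by let-7e-3p with 166 and 155 counts, where the passenger share of 1.24% and 1.10% was second to that of let-7d. The passenger let-7i-3p had 158 and 152 counts, although its guide was the most abundant of the family.

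The 3 hairpins of let-7a give 2 passengers: let-7a-3p, from let-7a-1 and let-7a-3, with 45 and 31 counts, and let-7a-2-3p, with 52 and 86. Of the 9 passengers all but let-7f-2-3p were tested, and let-7a-2-3p alone was called higher in replicate 8. Its log2 ratio was 0.72 (interval 0.21 to 1.25, adjusted p = 0.016, exact binomial). Only let-7d-3p was called lower, at -0.11 (interval -0.17 to -0.05, adjusted p = 0.00076, exact binomial). With TMM sizes let-7d-3p was not called, at -0.03 (exact binomial adjusted p = 0.56). Over all 695 names 10.8% were called higher and 23.5% lower, so 1 call in either direction does not set the passengers apart. At let-7f, let-7f-1-3p had 24 and 23 counts and let-7f-2-3p 8 and 1, which is under the minimum of 10 summed counts for the binomial test. With 8 counts in each library let-7g-3p was at 2.94 and 2.93 CPM, close to the limit of 1.10 CPM.

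The arm share differed between the libraries in 4 of the 10 hairpins by Fisher's exact test (two-sided, Benjamini-Hochberg over 202 hairpins), beside 19.8% called over all hairpins. Fisher's test called 39.1% of the 64 hairpins with at least 10000 counts, so 4 of 10 is near the background. The passenger share was lower in replicate 8 in 8 of the 10 hairpins, these 4 included, several of which share guide reads. Over all 202 hairpins the share of the less abundant arm was lower there in 106, or 52.5%. For let-7d the adjusted p of Fisher's exact test was 0.000173 and the share fell by 2.47 percentage points. For let-7i it was 0.223% and 0.163% (Fisher's exact adjusted p = 0.030). For let-7a-3 it was 0.137% and 0.0674% (Fisher's exact adjusted p = 0.020), and for let-7f-2 it was 0.0495% and 0.00367% (Fisher's exact adjusted p = 0.015), which rests on 9 passenger reads. The hairpin let-7a-1, whose arms have the same sequences as those of let-7a-3, had an adjusted p of 0.052 by the same exact test.

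**Figure D4:**
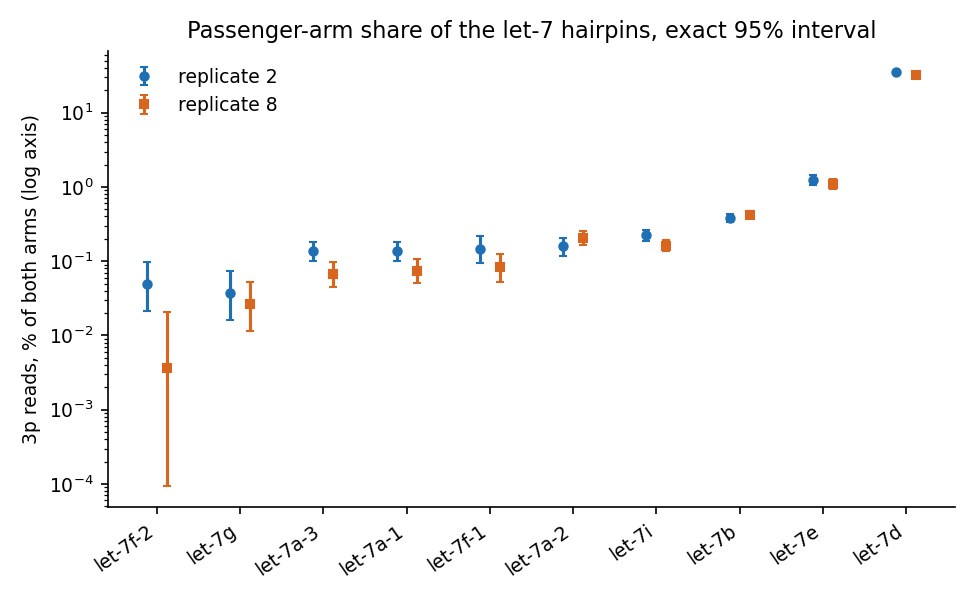
Share of passenger (3p) reads among the reads of both arms (percent, log axis) for 10 let-7 hairpins, with exact 95% intervals for counting error; circles are replicate 2 and squares replicate 8. let-7d lies at 35.1% and 32.6%, and the other 9 hairpins lie at 1.24% or lower.

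Among the 1736 of 2042 names that matched a RefSeq sequence, 3 carry the same seed besides the 8 guides; the other names were not searched. The guide miR-98-5p, from a hairpin 850 bases from let-7f-2 in HUWE1, had 744 and 925 counts and was called higher in replicate 8, by 0.31 on the log2 scale (interval 0.17 to 0.45; adjusted p = 7.0e-05, exact binomial). Its level of 306 ± 46.5 CPM (SD, n = 2) was below that of let-7c. The others are shown because they carry the seed on shorter RNAs, of 19 and 17 bases.
miR-4458: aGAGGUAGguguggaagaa
miR-4500: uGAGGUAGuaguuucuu

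Of these, miR-4458 had 9 and 5 counts and miR-4500 none, which allows up to 1.10 CPM. Of the counts of the 11 names found with this seed, the 8 let-7 guides held 99.7% in either library.

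The neighbours of let-7 hairpins were read from the same table, since miRNAs of 1 cluster can be cut from 1 transcript. At let-7e, whose hairpin is 104 bases from that of miR-99b and 389 from that of miR-125a, the guide miR-99b-5p had 15.3 and 12.0 counts for each let-7e-5p count. For miR-125a-5p these ratios were 4.09 and 2.54. Both neighbours were lower in replicate 8, with log2 ratios of -0.28 (-0.29 to -0.27) and -0.62 (-0.64 to -0.60), whereas let-7e-5p was at 0.07.

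At let-7c, miR-99a-5p had 3640 and 2972 counts, which is 3.47 and 2.48 for each let-7c count. Its log2 ratio was -0.30 (-0.37 to -0.23), and that of let-7c was 0.19. The guide miR-125b-5p comes from hairpins farther off, 50320 bases from let-7c and 46676 bases from let-7a-2. It was at 22288 and 16939 counts and had a log2 ratio of -0.40 (-0.43 to -0.37). From a hairpin 5635 bases from let-7a-2, miR-100-5p had 222011 and 251421 counts and a log2 ratio of 0.18 (0.17 to 0.18). It was the only one of these 5 miR-99, miR-100 and miR-125 guides that was higher in replicate 8. The hairpin mir-4763 between let-7a-3 and let-7b gave 19 and 25 counts of miR-4763-5p, against 67972 and 66186 of let-7b-5p.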

How the data were processed

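Small RNA of 2 hCMEC/D3 libraries was analysed from the deposited table, which gives raw counts per mature name and hairpin and RPM values (counts over 1 constant per library), per the file headers. The submitters' processing notes name CASAVA 1.9, FastQC, cutadapt, Bowtie 0.12.7 and hg19; the counting step and the miRBase release are not given in the sources used here. Each mature name was represented by its row with the highest mean count, and CPM were computed on the resulting totals. Log2 ratios used a pseudocount of 0.5. With 1 group there was no contrast for edgeR's quasi-likelihood test. Libraries were compared by exact binomial and Fisher's exact tests (scipy 1.17.1), checked on simulated data. The simulated counts held counting error only, so this check does not cover differences between libraries beyond it. TMM sizes came from edgeR 4.0.16 and size factors from DESeq2 1.42.0. Positions came from the GENCODE annotation mapped to GRCh37. All 8 guides, all rows of their hairpins, names sharing their seed and the guides of neighbouring hairpins are named; members and lists were chosen with earlier results of these data known. Intervals are 95% and cover counting error only.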

Additional observations from a re-analysis of the deposited data

How the results depend on the processing

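Of 16 recomputed summary values, 12 lay within 1 SD (shares) or 1.5 times (counts) of those reported, and 4 did not. The 12 include the shares from 1 replicate alone, which always lie within 1 SD of the mean of both. Those shares are therefore no check. The number of guides that differed could only have failed downwards, since there are 8 guides. The let-7 share of all counts was 11.1% with the rows of a name summed, which counts let-7a-5p 3 times and let-7f-5p 2 times. On the deposited RPM scale it was 8.06%, and what the denominator of that scale holds is not given in the sources used here. The median guide-arm share was 99.92% with arms taken by mature name and rows summed. This sum again counts let-7a-5p 3 times and let-7f-5p 2 times, but their passengers fewer times, which raises the guide share. The median was 99.78% over the 7 hairpins with at least 50 passenger counts, which leaves out let-7f-1, let-7f-2 and let-7g. Without 1 replicate the let-7 share ranged from 8.54% to 10.4% and the median guide-arm share from 99.85% to 99.88%. The number of guides that differed was 7 or 8 under every alternative tried for it, and that of hairpins with a differing arm share was 4 or 5. The log2 ratio of let-7b-5p reversed, to 0.045 with TMM sizes and to 0.072 with the DESeq2 size factors. No test between the libraries can be made without either of them. No paired analysis was possible because there is only 1 group. Depth limits the rarest passengers, such as let-7g-3p with 8 counts in each library.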
